A study of Mus musculus with 2 samples.

Results

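The genes described here encode the actin cytoskeleton and the contractile apparatus of the myofibroblast, and they were chosen by gene symbol from a list of 39. Of these, 38 were rows of the expression table and Actc1, a striated muscle actin gene, was not analysed here. The 38 genes held 239 of the 88702 listed transcripts and were 38 of 30491 listed genes. Symbols were taken as the table gives them, and the list was drawn up with earlier results of these data known.

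Actin exists as free monomers and as filaments, and filaments in fibroblasts are bundled with tropomyosin, alpha-actinin and non-muscle myosin II into stress fibres that pull on focal adhesions. When monomers are used up, the coactivators encoded by Mrtfa and Mrtfb are released from actin and enter the nucleus. There they act with serum response factor (SRF) on genes of the same cytoskeleton. A myofibroblast is a fibroblast-like cell that adds smooth muscle alpha-actin to its stress fibres and lays down matrix, and fibro/adipogenic progenitors (FAPs), the stromal cells of skeletal muscle, are a known source of such cells in injured muscle.

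FAPs were sorted freshly from wild-type mouse muscle and cultured in DMEM with fetal bovine serum and antibiotics. One culture condition received 1 µM mouse recombinant Musclin, a secreted peptide made by muscle, for 24 h. The other received the same amount of vehicle for 24 h. RNA was sequenced from 1 library per group, so the differences below carry no error between replicates and no p-value. The labels do not say whether a library came from 1 animal or from a pool, and serum, itself an activator of SRF, was present in both groups. The Musclin column was matched by name, while the column taken as vehicle is headed BSA and was assigned by elimination. All directions rest on that assignment.

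Depth was 6.69 Gb of aligned bases in the Musclin library and 6.76 Gb in the vehicle library, or 22456739 and 22677194 equivalents of a 298-base fragment. Markers of the labelled cell type and of others were compared first. Summed over 7 FAP markers the level was 627 FPKM with Musclin, against 434 FPKM with vehicle, with 1 marker, Tcf21, at 0 in the Musclin library and none in the vehicle library. Within that list Dcn was at 181 FPKM with Musclin, against 64.8 FPKM with vehicle, and Osr1 at 15.1 FPKM with Musclin against 34.8 FPKM with vehicle. Of 9 skeletal myogenic markers 6 were in the table, and their sum was 0.531 FPKM with Musclin against 0.748 FPKM with vehicle, with Ckm and Myh3 at 0 in both libraries and Myog at 0 with vehicle. The sum was 3.08 FPKM with Musclin against 5.44 FPKM with vehicle for 5 endothelial markers. For 6 leukocyte markers it was 13.7 FPKM with Musclin against 18.3 FPKM with vehicle. These went both ways, with Lyz2 at 8.46 FPKM with Musclin against 14.1 FPKM with vehicle. Csf1r was at 1.61 FPKM with Musclin against 0.532 FPKM with vehicle, and Cd68 at 3.03 FPKM with Musclin against 2.86 FPKM with vehicle. The 4 Schwann cell markers, of which Sox10 was at 0 with vehicle, summed to 1.88 FPKM with Musclin against 2.06 FPKM with vehicle. The 7 smooth muscle and pericyte markers, among them Myh11, with Kcnj8 at 0 in the Musclin library, summed to 22.3 FPKM with Musclin, against 29.9 FPKM with vehicle. The part of these cell types in the values below was not tested. In bulk RNA, fewer cells of a type and less RNA per cell cannot be told apart.

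Gene levels are FPKM (fragments scaled to transcript length and library size) summed over a gene's transcripts. Ratios are Musclin over vehicle on a log2 scale of FPKM plus 1, which understates differences of low genes. At a floor of 1 FPKM in either library 37 of the 38 genes remained, and Myocd fell below it. None of the 37 was 2-fold or more higher on that scale, against 1.71% of all 12884 genes at the floor. One, Avil, was 2-fold or more lower, against 1.52% of all genes. The log2 ratio was above 0 in 24 of the 37 genes and below 0 in 13, with a median of 0.11. Over all genes the median was -0.02 and 46.9% were above 0. The 95% interval of the aligned-base ratio, an exact Clopper-Pearson interval that covers counting error only, lay above 1 in 22 genes, below 1 in 11 and included 1 in 4. These counts were not made over all genes, so they do not set the 37 apart. In deep genes a small difference is enough, as in Flna, with a ratio of 0.960 (0.949 to 0.970) on 62265 fragment equivalents with Musclin and 65530 with vehicle. The labels name no molecular identifiers, so duplicate reads count as separate fragments in it.

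**Figure D1:**
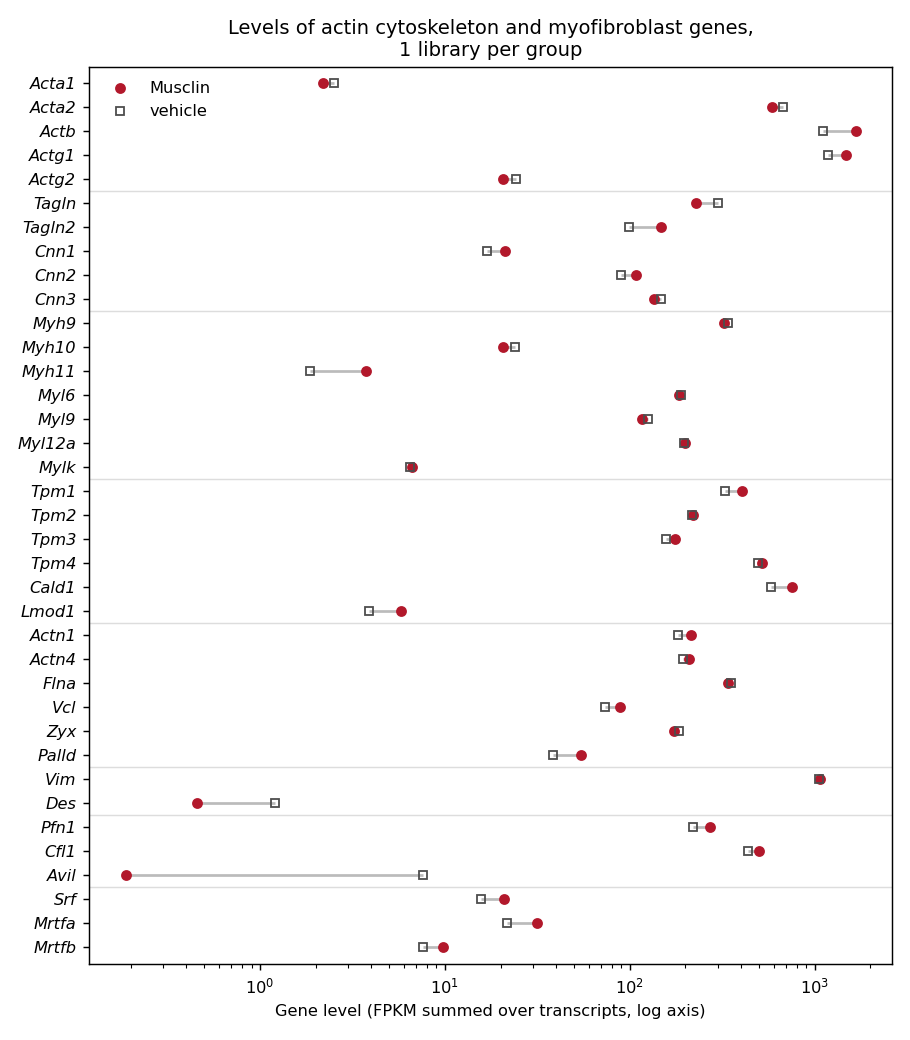
Level of each of the 37 genes in FPKM (log axis) in the Musclin library (filled circles) and the vehicle library (open squares), 1 library per group, in the order actin, calponin and transgelin, myosin II, tropomyosin and thin filament, cross-linker and adhesion plaque, intermediate filament, monomer binding and severing, SRF and coactivators. Most pairs lie close together, and Avil, at 0.187 FPKM with Musclin, against 7.60 FPKM with vehicle, is the widest pair.

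Levels differed far more between genes than between the libraries. Actb, Actg1 and Vim were the 3 highest in both libraries. Of the 37 genes 23 reached 100 FPKM in a library, and their log2 ratios ran from -0.39 to 0.60 with a median of 0.07. All 583 genes of the table at that level had a median of 0.02. Above 0 were 65.2% of the 23 genes and 53.9% of the 583, a smaller gap than that to the 46.9% over all genes.

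The cytoplasmic actins were higher in the Musclin library and the smooth muscle actins were slightly lower. Actg1, which encodes gamma-cytoplasmic actin, was at 1487 FPKM with Musclin, against 1184 FPKM with vehicle, which is 0.33 as a log2 ratio and 1.26 as an aligned-base ratio (95% interval 1.24 to 1.27). Acta2, which encodes the smooth muscle alpha-actin used to define myofibroblasts, was at 586 FPKM with Musclin, against 672 FPKM with vehicle, which is -0.20 as a log2 ratio and 0.873 as an aligned-base ratio (0.859 to 0.888). Actg2, the enteric smooth muscle actin gene, was at 20.5 FPKM with Musclin, against 24.3 FPKM with vehicle. Acta1, the skeletal muscle actin gene, was at 2.20 FPKM with Musclin against 2.51 FPKM with vehicle, and its interval of 0.637 to 1.23 included 1. The 3 muscle-type actins together came to 609 FPKM with Musclin, against 699 FPKM with vehicle, while Actb and Actg1 together came to 3161 FPKM with Musclin against 2289 FPKM with vehicle. Acta2 was thus 15.6% of the FPKM of the 5 actin genes with Musclin and 22.5% with vehicle. Both this share and the sum of Actb and Actg1 count an Actb transcript described below. Without that transcript Actb was at 1203 FPKM with Musclin, against 1105 FPKM with vehicle.

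These genes share much of their coding sequence, which bears on how far their reads can be told apart. The first 36 coding bases are shown for the main coding transcript of each (GENCODE vM21, GRCm38), because actin isoforms are known to differ most at their N-termini.
Actb: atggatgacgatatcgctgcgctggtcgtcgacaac
Actg1: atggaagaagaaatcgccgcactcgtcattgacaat
Acta2: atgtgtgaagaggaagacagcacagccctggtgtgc
Actg2: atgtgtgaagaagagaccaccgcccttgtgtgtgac
Acta1: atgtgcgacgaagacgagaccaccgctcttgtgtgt
Aligned from the stop codon without gaps, the coding sequences of Actb and Actg1 were 88.6% identical, with a longest identical run of 62 bases. Actb and Acta2 were 83.0% identical with a longest run of 47 bases, and Actb and Acta1 85.0% identical with a run of 77 bases. These runs are shorter than 149 bases, the total taken as the read length. How the authors placed reads with several matches, such as those from the many processed pseudogenes of Actb and Actg1, is not stated in the labels. The split between these genes is therefore uncertain to that degree.

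Actb, which encodes beta-cytoplasmic actin, lies on chromosome 5 from 142903115 to 142906754 (GRCm38, minus strand). It was the highest of the genes in the Musclin library only with ENSMUST00000167386 counted, since without that transcript Actg1 was higher. Its summed level was 1673 FPKM with Musclin, against 1105 FPKM with vehicle, a log2 ratio of 0.60. The main transcript ENSMUST00000100497 was at 1144 FPKM with Musclin, against 1062 FPKM with vehicle. ENSMUST00000167386, an 894-base processed transcript without a coding sequence, was at 470.1 FPKM with Musclin, against 0.108 FPKM with vehicle. It made up 28.1% of the gene's FPKM in the Musclin library and 0.0098% in the vehicle library, resting on 9438 fragment equivalents with Musclin and 2 with vehicle. Without it the gene's sum was 1203 FPKM with Musclin, against 1105 FPKM with vehicle, a log2 ratio of 0.12, an alternative chosen after its values were seen. That sum also leaves out fragments on exons that other Actb transcripts share. With all transcripts counted, the aligned-base ratio of Actb was 1.29 (95% interval 1.27 to 1.30). It rested on 59966 fragment equivalents with Musclin and 47124 with vehicle. The authors' deposited table gives ENSMUST00000167386 a fold change of 4349 with a p-value of 1 and no mark.

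The other Actb transcripts were low in both libraries. ENSMUST00000171419, a shorter coding transcript, was at 44.3 FPKM with Musclin, against 31.3 FPKM with vehicle. ENSMUST00000165629, which retains an intron, was at 7.10 FPKM with Musclin against 7.04 FPKM with vehicle. ENSMUST00000164765, which also retains an intron, was at 6.33 FPKM with Musclin against 4.06 FPKM with vehicle, and the coding transcript ENSMUST00000106216 was at 1.39 FPKM with Musclin against 0.844 FPKM with vehicle. None of these came near the difference listed for ENSMUST00000167386.

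No base of ENSMUST00000167386 is found in it alone, since the other listed Actb transcripts cover all of its exons. Its level is thus an estimate shared out among overlapping transcripts, and the deposited values do not hold the reads that span its junctions.

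The calponin and transgelin family, actin-binding proteins of contractile and motile cells, lay on both sides of equal levels. Tagln, which encodes transgelin (SM22-alpha), an early smooth muscle marker, was at 228 FPKM with Musclin, against 299 FPKM with vehicle, an aligned-base ratio of 0.759 (95% interval 0.738 to 0.782). Tagln2, its relative found outside muscle, was at 147 FPKM with Musclin, against 98.5 FPKM with vehicle, a ratio of 1.5 (1.43 to 1.56). Their log2 ratios were -0.39 and 0.58, the lowest of the 23 genes at 100 FPKM and the second highest after Actb. Without ENSMUST00000167386 Actb was at 0.12, below Tagln2. Cnn1, the smooth muscle calponin gene, was at 21.04 FPKM with Musclin against 17.0 FPKM with vehicle, Cnn2 at 109 FPKM with Musclin against 90.2 FPKM with vehicle and Cnn3 at 135 FPKM with Musclin against 148 FPKM with vehicle. Tagln shares 1241 exon bases with the gene Gm48529 on the opposite strand. Exons of 15 of the 38 genes overlap exons of another gene in GENCODE vM21, 14 of them on the opposite strand, and the labels do not state whether the counting used strand.

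Myosin II, the motor that contracts stress fibres, was near equal in its abundant chains and higher with Musclin in its rare smooth muscle chain. Myh9, the main non-muscle heavy chain gene, was at 324 FPKM with Musclin, against 342 FPKM with vehicle, and Myh10, another non-muscle heavy chain gene, at 20.6 FPKM with Musclin against 23.9 FPKM with vehicle. Myh11, the smooth muscle heavy chain gene, was at 3.75 FPKM with Musclin, against 1.87 FPKM with vehicle, resting on 549 fragment equivalents with Musclin and 277 with vehicle. Its aligned-base ratio was 2.0 (95% interval 1.73 to 2.32), and its log2 ratio of 0.73 was the highest of the 37 genes. The authors' deposited table marks its transcript ENSMUST00000090287, with a fold change of 2.0. Of the other 6 markers of smooth muscle cells and pericytes 5 were lower with Musclin, the most abundant being Cspg4 at 14.0 FPKM with Musclin, against 21.5 FPKM with vehicle.

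The light chains and their kinase stayed close between the libraries as gene sums. Myl9, a regulatory light chain gene, was at 116 FPKM with Musclin, against 126 FPKM with vehicle. Myl12a, the non-muscle regulatory light chain gene, was at 200.3 FPKM with Musclin against 196 FPKM with vehicle, Myl6, the essential light chain gene, at 184 FPKM with Musclin against 189 FPKM with vehicle, and Mylk, the kinase that phosphorylates the regulatory chain, at 6.65 FPKM with Musclin against 6.52 FPKM with vehicle. For Myl6, Myl12a and Mylk the side of 1 depended on the scale, with aligned-base ratios of 1.05, 0.975 and 0.957 against FPKM ratios of 0.972, 1.02 and 1.02. Myl12a shares 462 exon bases with its neighbour and near copy Myl12b on the same strand, so its level is uncertain in that stretch.

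All 6 tropomyosin and thin filament genes were above 0 in log2 ratio, with a median of 0.23. Cald1, which encodes caldesmon, a brake on the actomyosin motor, was at 758 FPKM with Musclin, against 581 FPKM with vehicle, an aligned-base ratio of 1.30 (95% interval 1.28 to 1.31). Tpm1, which encodes alpha-tropomyosin, was at 404 FPKM with Musclin against 328 FPKM with vehicle, a ratio of 1.26 (1.23 to 1.29). Lmod1, which encodes the smooth muscle leiomodin that starts filaments, was at 5.83 FPKM with Musclin against 3.90 FPKM with vehicle, a ratio of 1.49 (1.30 to 1.72). The other tropomyosin genes differed less, with Tpm2 at 219.8 FPKM with Musclin against 217 FPKM with vehicle, Tpm3 at 176 FPKM with Musclin against 158 FPKM with vehicle and Tpm4 at 519 FPKM with Musclin against 493 FPKM with vehicle. Cald1 and Tpm1 stood above the other 4 genes in the difference of levels, and Lmod1 in its ratio.

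Cross-linkers and adhesion plaque genes were above 0 in 4 of 6 cases, with a median of 0.17. Palld, which encodes palladin, a scaffold of stress fibres, was at 54.8 FPKM with Musclin, against 38.5 FPKM with vehicle, an aligned-base ratio of 1.51 (1.45 to 1.57). Vcl, which encodes the focal adhesion protein vinculin, was at 88.9 FPKM with Musclin against 73.8 FPKM with vehicle, and 2090 of its exon bases are also exon of Ap3m1 on the other strand. Actn1 and Actn4, the non-muscle alpha-actinin genes, were at 216 FPKM with Musclin against 183 FPKM with vehicle and 208 FPKM with Musclin against 193 FPKM with vehicle. Flna, which encodes filamin A, was at 340.3 FPKM with Musclin against 353 FPKM with vehicle, and Zyx, which encodes the mechanosensitive plaque protein zyxin, at 173 FPKM with Musclin against 185 FPKM with vehicle. Palld had the largest ratio of the 6.

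The intermediate filament gene Vim, which encodes vimentin of mesenchymal cells, was level at 1069 FPKM with Musclin, against 1059 FPKM with vehicle, and its interval of 0.998 to 1.02 included 1. Des, which encodes desmin of muscle cells and pericytes, was near the floor at 0.457 FPKM with Musclin, against 1.21 FPKM with vehicle, on 23 fragment equivalents with Musclin and 51 with vehicle. Its log2 ratio of -0.60 passes 2-fold lower when the pseudocount is 0.1 FPKM, where it is -1.23.

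Among proteins that bind monomers or sever filaments, Pfn1, which encodes profilin, was at 272 FPKM with Musclin, against 219.7 FPKM with vehicle, and Cfl1, which encodes cofilin, at 499.6 FPKM with Musclin against 435 FPKM with vehicle. Avil, which encodes advillin, a gelsolin relative best known in sensory neurons, was at 0.187 FPKM with Musclin, against 7.60 FPKM with vehicle. It rested on 13 fragment equivalents with Musclin and 518 with vehicle, and its aligned-base level was 40.2-fold lower with Musclin (95% interval 22.9 to 74.6). Its transcript ENSMUST00000026500 accounts for all of the level with Musclin and 97.7% of it with vehicle. The authors' deposited table gives that transcript a p-value of 1 and no mark. Avil shares 165 exon bases with Tsfm on the opposite strand.

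The gene of SRF and those of its coactivators at the floor were all higher with Musclin. Srf was at 20.8 FPKM with Musclin, against 15.8 FPKM with vehicle, an aligned-base ratio of 1.31 (95% interval 1.2 to 1.43). Mrtfa, the actin-sensing coactivator gene, was at 31.4 FPKM with Musclin against 21.7 FPKM with vehicle, a ratio of 1.42 (1.34 to 1.51), and Mrtfb, its paralog, at 9.80 FPKM with Musclin against 7.59 FPKM with vehicle, a ratio of 1.27 (1.19 to 1.37). Myocd, which encodes myocardin, the muscle-restricted coactivator, was under the floor at 0.387 FPKM with Musclin against 0.275 FPKM with vehicle. Its interval of 0.910 to 2.44 included 1. The 3 genes at the floor had a median log2 ratio of 0.38, against -0.02 over all genes.

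**Figure D2:**
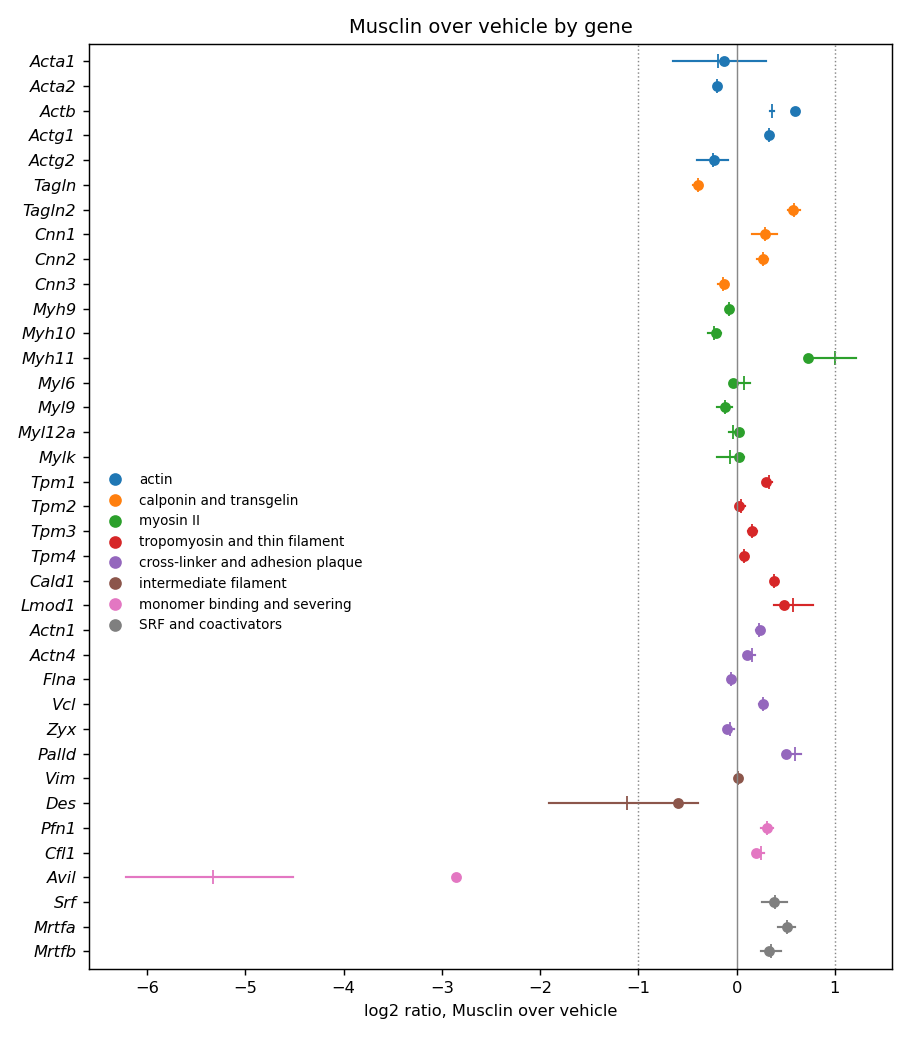
Musclin over vehicle for the 37 genes on a log2 axis, coloured by role. Circles are the ratio of FPKM plus 1, ticks the aligned-base ratio and lines its 95% counting interval, with dotted lines at 2-fold. Only the circle of Avil lies past 2-fold. Several circles lie outside their own lines. Among them are those of Avil and Myh11, where the added 1 FPKM shrinks the ratio, and that of Actb, where a short transcript carries the difference.

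The promoters of some of these genes hold the CArG box, the sequence SRF binds. RefSeq promoters (250 bases before to 50 after a start, GRCm38.p6) were on hand for 33 of the 38 genes, 41 windows in all. None was on hand for Actb, Actg2, Myh11, Myocd and Tagln. The box was searched only as CCWWWWWWGG, with W for A or T, a pattern that reads the same on both strands. It was found in 7 of the 41 windows (17.1%), against 1.63% of the 32851 promoters in the table. The genes were Acta1, Actg1, Cnn2, Myl6, Myl9, Srf and Vcl, and the Myl6 window lies away from the starts of its listed coding transcripts. Near matches, such as ccctatatgg and ccttgtttgg in the Acta2 window, were not counted. That window is set on a start at position 34255373, while the main listed Acta2 transcript starts upstream at 34255590. The Srf window is shown because the gene holds the box more than once, 82 and 62 bases before its start. It is chr17:46556113-46556412 on the minus strand, with the boxes in capitals.
Srf: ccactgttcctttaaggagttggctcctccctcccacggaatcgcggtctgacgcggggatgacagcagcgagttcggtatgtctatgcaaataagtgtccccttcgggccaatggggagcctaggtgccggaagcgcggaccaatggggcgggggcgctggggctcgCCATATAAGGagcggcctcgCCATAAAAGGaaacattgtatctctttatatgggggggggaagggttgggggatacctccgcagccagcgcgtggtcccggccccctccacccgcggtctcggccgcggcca
In Actg1 and Vcl the box stood 90 and 227 bases before the start, shown with 20 bases on each side.
Actg1: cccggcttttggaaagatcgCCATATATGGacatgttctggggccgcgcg
Vcl: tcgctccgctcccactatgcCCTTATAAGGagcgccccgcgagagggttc
The 7 genes with a full match in the window had a median log2 ratio of 0.26, with 4 of 7 above 0. The 26 without a full match, Acta2 among them, had a median of 0.09, with 18 of 26 above 0. The genes without a window are in neither group, and their log2 ratios ran from -0.39 (Tagln) to 0.73 (Myh11). Any link between the box and the ratios was not tested. A match is a run of letters and not a shown binding site, and the window of 300 bases leaves out more distant sites. The share of windows with a match follows from which genes were listed, here genes of the cytoskeleton that SRF acts on. It does not rest on the levels in these libraries.

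The Avil promoter held no such box but held TGATGNAA, a motif shared by amino acid response elements that ATF4 and C/EBP factors bind, searched on both strands after the Avil values were seen. No other of the 33 genes held that motif, which 3.97% of all promoters in the table hold. At 1 of 41 windows its share in these genes was not above that of all promoters. Any link between the motif and the Avil level was not tested. The window is chr10:127000459-127000758 on the plus strand, and the match, in capitals, begins 17 bases before the start.
Avil: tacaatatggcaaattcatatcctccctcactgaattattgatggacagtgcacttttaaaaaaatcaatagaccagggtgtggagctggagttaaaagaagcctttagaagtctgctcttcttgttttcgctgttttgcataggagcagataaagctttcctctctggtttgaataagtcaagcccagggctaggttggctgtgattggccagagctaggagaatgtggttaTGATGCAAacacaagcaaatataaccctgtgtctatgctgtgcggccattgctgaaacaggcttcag

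Several genes were closer between the libraries as sums than as transcripts. Of 130 listed transcripts of the genes at the floor, 11 (8.46%) lay 2-fold or more above equality and 5 (3.85%) lay 2-fold or more below it, spread over 11 genes. Of all 23162 transcripts at the floor 6.11% were higher and 5.89% lower by the same rule. The whole table was also closer as sums, with 1.71% of all genes higher and 1.52% lower. The authors' deposited table marks 13 of the 239 transcripts as significant (5.44%), of which 10 were higher and 3 lower, against 3.42% of all listed transcripts. The labels do not state how those marks were obtained from 1 value per condition. Of 12 transcripts of these genes at 5 FPKM or more and past 2-fold, 4 have a p-value of 1 in the authors' deposited table, as do 255 of 1315 such transcripts over the whole table. In 32 of the 35 genes with several transcripts the same transcript led in both libraries, and the exceptions were Tpm1, Zyx and Des. That count was not made over all genes.

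**Figure D3:**
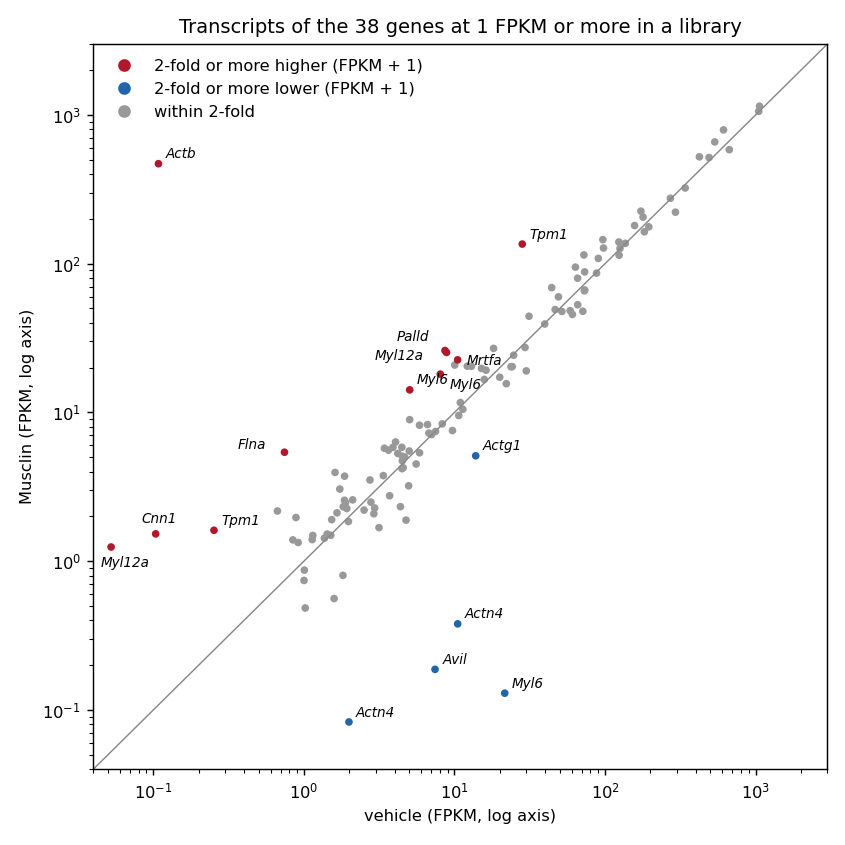
Each point is a transcript of the 38 genes with 1 FPKM or more in a library (130 transcripts), with FPKM in the Musclin library up and in the vehicle library across, both on log axes. Most points follow the line of equal levels, and the named points are past 2-fold, among them an Actb transcript at 470.1 FPKM with Musclin, against 0.108 FPKM with vehicle.

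Palladin transcripts differed by where they start. The coding transcript ENSMUST00000121493, with 20 exons and 3006 coding bases, starts at position 61760089 of chromosome 8 (GRCm38, minus strand) and was at 26.1 FPKM with Musclin, against 8.65 FPKM with vehicle. Transcripts that start downstream between 61591139 and 61591142, led by ENSMUST00000121200 with 12 exons and 1989 coding bases, were at 27.8 FPKM with Musclin, against 29.4 FPKM with vehicle. The ratio was 3.02 (95% interval 2.81 to 3.23) at the upstream start and 0.946 at the downstream start. The upstream start gave 48.3% of the coding FPKM of Palld with Musclin and 22.7% with vehicle. Another start, still further upstream, was at 0.119 FPKM with Musclin against 0.0171 FPKM with vehicle. The authors' deposited table marks ENSMUST00000121493, with a fold change of 3.02 and a q-value of 5.76e-13. No base of ENSMUST00000121493 is in it alone among the listed transcripts, and how reads were shared out was not tested.

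The promoters of the upstream and downstream starts are shown because their summed levels differed in ratio. They are chr8:61760040-61760339 and chr8:61591090-61591389 on the minus strand (RefSeq, GRCm38.p6), with the 50 bases from the start on in capitals.
Palld upstream: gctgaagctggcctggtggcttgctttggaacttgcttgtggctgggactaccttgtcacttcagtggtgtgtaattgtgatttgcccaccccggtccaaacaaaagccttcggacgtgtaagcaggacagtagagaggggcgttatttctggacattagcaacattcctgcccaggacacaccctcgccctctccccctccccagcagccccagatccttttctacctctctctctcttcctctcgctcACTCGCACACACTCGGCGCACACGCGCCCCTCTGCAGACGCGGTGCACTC
Palld downstream: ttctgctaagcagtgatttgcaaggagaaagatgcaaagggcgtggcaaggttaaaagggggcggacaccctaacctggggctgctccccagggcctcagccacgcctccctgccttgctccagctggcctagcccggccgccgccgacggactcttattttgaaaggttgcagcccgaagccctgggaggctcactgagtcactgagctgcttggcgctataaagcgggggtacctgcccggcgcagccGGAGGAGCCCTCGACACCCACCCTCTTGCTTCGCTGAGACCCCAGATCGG
Neither window holds CCWWWWWWGG or TGATGNAA.

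Mrtfa showed the reverse arrangement, with the downstream start higher. ENSMUST00000109579, which starts at position 81105083 of chromosome 15 (minus strand) and has 2892 coding bases, was at 22.6 FPKM with Musclin, against 10.5 FPKM with vehicle. Its ratio was 2.15 (95% interval 1.99 to 2.32). The 2 transcripts that start upstream at 81190757 were at 6.83 FPKM with Musclin, against 9.94 FPKM with vehicle, a ratio of 0.687 (0.621 to 0.758). The downstream start gave 76.2% of the coding FPKM with Musclin and 50.9% with vehicle. The authors' deposited table marks ENSMUST00000109579 as well, with a fold change of 2.15. Of its 4154 bases 311 are in none of the other Mrtfa transcripts with exons in GENCODE vM21, which does not hold ENSMUST00000239114, 1 of the 2 that start upstream.

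The promoters of Mrtfa are chr15:81104998-81105297 and chr15:81190687-81190986 on the minus strand, shown in the same way because the starts went in opposite directions.
Mrtfa downstream: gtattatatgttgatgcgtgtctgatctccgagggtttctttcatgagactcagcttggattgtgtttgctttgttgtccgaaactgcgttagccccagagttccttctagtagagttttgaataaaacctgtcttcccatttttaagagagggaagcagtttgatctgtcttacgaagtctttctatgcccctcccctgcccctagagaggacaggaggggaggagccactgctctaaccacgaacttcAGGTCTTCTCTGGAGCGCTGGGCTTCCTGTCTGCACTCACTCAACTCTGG
Mrtfa upstream: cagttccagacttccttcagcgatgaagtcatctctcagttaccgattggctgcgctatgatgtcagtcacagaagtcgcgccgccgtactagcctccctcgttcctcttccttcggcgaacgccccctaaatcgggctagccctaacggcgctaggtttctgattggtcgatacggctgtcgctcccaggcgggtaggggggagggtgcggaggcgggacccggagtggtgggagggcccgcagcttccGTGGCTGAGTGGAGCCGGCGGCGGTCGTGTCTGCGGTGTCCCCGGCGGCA

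Of the 38 genes, 6 had coding transcripts at 5 FPKM or more from 2 or more starts set over 500 bases apart, namely Actb, Cald1, Flna, Mrtfa, Palld and Tpm1. In Cald1 all 3 starts were higher with Musclin, at 604 FPKM with Musclin against 481 FPKM with vehicle, 115 FPKM with Musclin against 72.6 FPKM with vehicle and 29.8 FPKM with Musclin against 17.3 FPKM with vehicle from the most upstream to the most downstream. In Flna both starts stayed close, at 137 FPKM with Musclin against 136 FPKM with vehicle upstream and 193 FPKM with Musclin against 207 FPKM with vehicle downstream. In Tpm1 the upstream start was at 308 FPKM with Musclin, against 222 FPKM with vehicle, and the downstream start at 77.4 FPKM with Musclin against 91.9 FPKM with vehicle. Their aligned-base ratios were 1.42 (95% interval 1.38 to 1.46) and 0.869 (0.829 to 0.911).

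**Figure D4:**
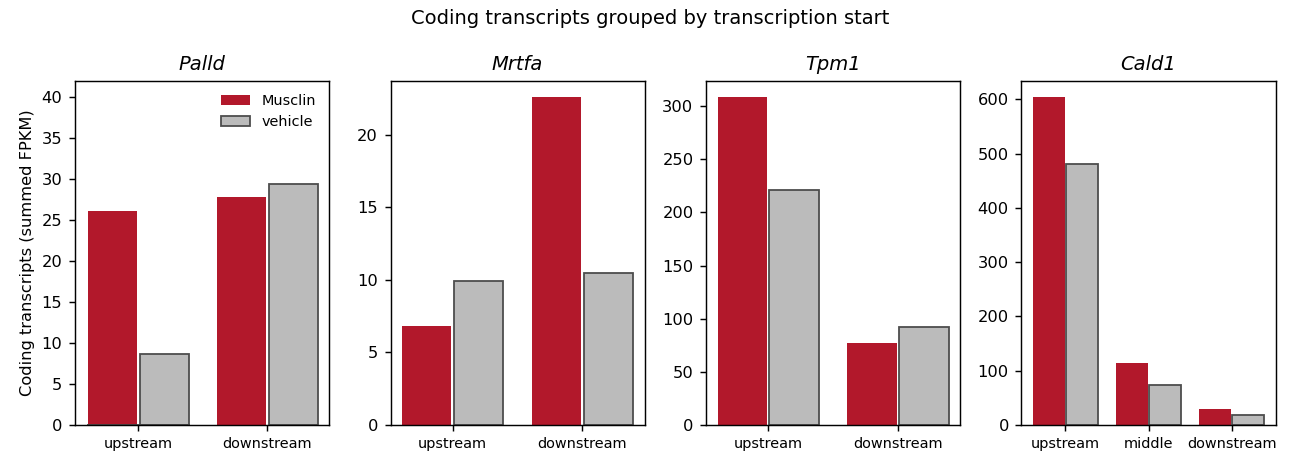
Summed FPKM of coding transcripts by transcription start in Palld, Mrtfa, Tpm1 and Cald1, with Musclin bars left of vehicle bars, 1 library each and starts with 5 FPKM or more in a library. In Palld the upstream pair differs (26.1 FPKM with Musclin, 8.65 FPKM with vehicle) and the downstream pair is near equal, while in Mrtfa and Tpm1 the pairs go in opposite directions.

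Tpm1 also differed by alternative exon. The transcript ENSMUST00000113707, with 9 exons and 852 coding bases, was at 136 FPKM with Musclin, against 28.2 FPKM with vehicle, or 33.5% of the gene with Musclin and 8.59% with vehicle. Its ratio was 4.81 (95% interval 4.52 to 5.12), and the authors' deposited table marks it with a q-value of 1.92e-24. ENSMUST00000030185, which led with vehicle, was at 47.9 FPKM with Musclin, against 71.2 FPKM with vehicle. ENSMUST00000113701 was at 79.9 FPKM with Musclin against 65.7 FPKM with vehicle and ENSMUST00000034928 at 19.0 FPKM with Musclin against 29.99 FPKM with vehicle.

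ENSMUST00000113707 and ENSMUST00000113701 differ in their second and sixth exons, each of which comes in an upstream and a downstream form, and in tropomyosin the upstream second exon is the one known from smooth muscle. Summed over coding transcripts, those with the downstream second exon were at 217 FPKM with Musclin, against 145 FPKM with vehicle, a ratio of 1.5. Those with the upstream second exon were at 111 FPKM with Musclin against 107 FPKM with vehicle, a ratio of 1.04, with ENSMUST00000034928 listed with both exons and counted in each. For the sixth exon the downstream form was at 287 FPKM with Musclin against 227 FPKM with vehicle and the upstream form at 98.7 FPKM with Musclin against 86.6 FPKM with vehicle, ratios of 1.27 and 1.14. Transcripts with the far last exon were at 333 FPKM with Musclin, against 237 FPKM with vehicle, a ratio of 1.41. Those ending nearer were at 52.9 FPKM with Musclin against 76.6 FPKM with vehicle, a ratio of 0.691. Of these splits, only that by last exon had sums on opposite sides of equal levels.

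The second and sixth exons are shown because ENSMUST00000113707 and ENSMUST00000113701 differ in them (GENCODE vM21, chromosome 9, minus strand). The second exons are chr9:67047786-67047911 (downstream) and chr9:67048124-67048249 (upstream), and the sixth exons chr9:67031951-67032026 and chr9:67032466-67032541. All are coding, and capitals in the upstream form mark each base that differs from the downstream form at the same position.
Second exon, downstream: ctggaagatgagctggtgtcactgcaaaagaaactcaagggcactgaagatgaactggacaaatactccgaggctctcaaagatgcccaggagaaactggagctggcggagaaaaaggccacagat
Second exon, upstream: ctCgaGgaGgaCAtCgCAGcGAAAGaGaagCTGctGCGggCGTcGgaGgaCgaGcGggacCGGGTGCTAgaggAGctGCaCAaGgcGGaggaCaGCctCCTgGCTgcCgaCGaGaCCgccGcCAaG
Sixth exon, downstream: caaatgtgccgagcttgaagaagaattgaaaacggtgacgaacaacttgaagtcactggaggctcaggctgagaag
Sixth exon, upstream: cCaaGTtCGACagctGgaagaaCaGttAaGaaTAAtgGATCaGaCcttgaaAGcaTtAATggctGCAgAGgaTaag
The second exons have 126 bases and differ at 66 of them, and the sixth exons have 76 and differ at 33, so reads within them can be told apart. The transcript levels still depend on how reads of the shared exons were shared out. ENSMUST00000113707 has 131 bases found in no other listed Tpm1 transcript.

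In other genes the transcripts past 2-fold were minor. The coding transcript ENSMUST00000219236 of Myl6 was at 0.130 FPKM with Musclin, against 21.6 FPKM with vehicle, 0.0705% of the gene with Musclin and 11.4% with vehicle, while ENSMUST00000217733 was at 14.2 FPKM with Musclin against 5.04 FPKM with vehicle and the intron-retaining ENSMUST00000219554 at 18.1 FPKM with Musclin against 8.05 FPKM with vehicle. The intron-retaining ENSMUST00000126529 of Myl12a was at 25.3 FPKM with Musclin against 8.86 FPKM with vehicle. ENSMUST00000127210 of Actn4 was at 0.379 FPKM with Musclin, against 10.5 FPKM with vehicle, on 14 fragment equivalents with Musclin and 380 with vehicle, while the main Actn4 transcript ENSMUST00000068045 was at 206 FPKM with Musclin against 179 FPKM with vehicle. ENSMUST00000130007 of Flna was at 5.40 FPKM with Musclin against 0.743 FPKM with vehicle, which is 1.59% of that gene with Musclin and 0.210% with vehicle. ENSMUST00000128055 of Actg1 was at 5.11 FPKM with Musclin against 13.8 FPKM with vehicle, while ENSMUST00000106215, which led in both libraries, was at 793 FPKM with Musclin against 612 FPKM with vehicle. The remaining 4 transcripts past 2-fold, in Cnn1, Myl12a, Tpm1 and Actn4, stayed under 2 FPKM in both libraries. Besides that of Myh11, the authors' deposited table marks 4 transcripts that stayed within 2-fold on the scale used here, namely ENSMUST00000164375 of Zyx (20.8 FPKM with Musclin against 10.04 FPKM with vehicle), ENSMUST00000149009 of Cald1 (1.89 FPKM with Musclin against 4.77 FPKM with vehicle), ENSMUST00000238492 of Tpm4 (0.561 FPKM with Musclin against 1.59 FPKM with vehicle) and ENSMUST00000024846 of Myl12a (3.95 FPKM with Musclin against 1.61 FPKM with vehicle).

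Outside these 38 genes, 11 lists of actin cytoskeleton and myofibroblast matrix genes held 145 distinct genes, 125 of them at the floor. Of the 125, 2 lay 2-fold or more above equality and none as far below it, and the median log2 ratio was 0.11 with 82 above 0. Over all genes at the floor 1.71% lay 2-fold or more higher and 1.52% as far lower, and 46.9% were above 0. The 2 were Tnc, which encodes tenascin-C, at 387 FPKM with Musclin, against 148 FPKM with vehicle, and Thbs1, which encodes thrombospondin-1, at 2053 FPKM with Musclin against 990 FPKM with vehicle. They belong to the 9 myofibroblast matrix genes, whose median was -0.07 and among which Fn1, the fibronectin gene, was at 1644 FPKM with Musclin, against 2984 FPKM with vehicle. Matrix genes of that list therefore lay on both sides of equal levels.

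The lists closest to filament assembly were mostly above 0 without passing 2-fold. The 8 genes of the Arp2/3 complex, which branches filaments, had a median log2 ratio of 0.16, with Arpc5 at 86.7 FPKM with Musclin, against 64.2 FPKM with vehicle and Arpc4 at 32.1 FPKM with Musclin against 24.2 FPKM with vehicle. The 10 formins and other nucleators had a median of 0.17, with Inf2 at 48.9 FPKM with Musclin against 29.7 FPKM with vehicle and Fhod1 at 7.70 FPKM with Musclin against 4.54 FPKM with vehicle. The 12 partners of monomers and severing had a median of 0.17, with Dstn, which encodes the cofilin relative destrin, at 312 FPKM with Musclin against 204 FPKM with vehicle and Wdr1, a helper of cofilin, at 166 FPKM with Musclin against 119 FPKM with vehicle. The 10 genes of the gelsolin family and capping proteins, relatives of Avil among them, had a median of -0.04, and none was past 2-fold.

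None of the genes at the floor in the lists of focal adhesion and of cross-linking genes passed 2-fold. Of 26 genes in the focal adhesion list 22 were above 0, with a median of 0.13. Smtn, which encodes smoothelin and was counted there only by its place in the list, was at 39.4 FPKM with Musclin, against 24.8 FPKM with vehicle. Bcar1, an adhesion scaffold gene, was at 32.9 FPKM with Musclin against 20.7 FPKM with vehicle. Among 12 bundlers and cross-linkers, with a median of 0.13, Flnc, a paralog of the filamin gene Flna, was at 40.6 FPKM with Musclin against 71.5 FPKM with vehicle.

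Further targets of SRF and its coactivators were spread around 0. The 14 of them at the floor had a median log2 ratio of 0.07 with 8 above 0. Fhl1 and Fhl2, LIM-domain genes, were at 14.1 FPKM with Musclin, against 22.5 FPKM with vehicle and at 39.9 FPKM with Musclin against 60.0 FPKM with vehicle. The 5 other intermediate filament genes had a median of 0.09 and the 3 other myosin light chain genes one of -0.15.

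**Figure D5:**
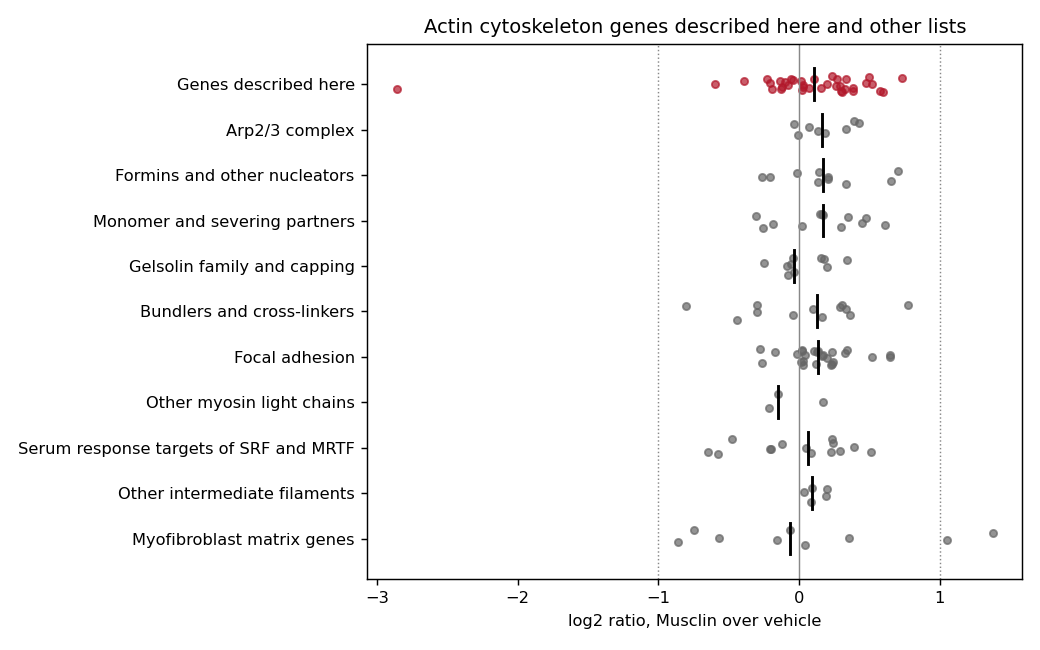
Log2 ratio of Musclin over vehicle for the 37 genes described here (top row) and for the genes of 10 other lists at the floor, 1 point per gene with black bars at medians and dotted lines at 2-fold. Medians run from -0.15 to 0.17, and past 2-fold lie Avil in the top row and Tnc and Thbs1 in the bottom row.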

How the data were processed

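The samples are 1 RNA library of Musclin-treated and 1 of vehicle-treated mouse progenitors. The authors deposited 1 value per transcript and condition in FPKM, per the file headers, for 88702 transcripts. The authors' deposited table also holds a fold change (ratio of both FPKM values), its log2, and a p-value and q-value per transcript, whose test no source used here names. StringTie, DESeq2 and edgeR are named in the submitters' processing notes, without roles or versions. The aligner, the strand setting and the genome build: not given in the sources used here. Positions matched GENCODE vM21 (GRCm38) at both ends for 87772 of the 88029 transcripts with an identifier in it, so positions are printed as GRCm38. The BSA column was read as vehicle by elimination.

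FPKM was summed per gene. Log2 ratios used a pseudocount of 1 FPKM, a floor of 1 FPKM in either library and a threshold of 2-fold, with no test. Depth was recovered from FPKM times length, which comes in steps of 1 aligned base in single-exon genes with 1 transcript. Of 3534 such genes with Musclin 79.4% and of 3481 with vehicle 79.1% gave whole bases within 0.1. The table holds 97.1% of the aligned bases with Musclin and 97.0% with vehicle. Fragment equivalents are bases divided by 298. The 95% Clopper-Pearson intervals cover counting error only and not the sharing out of reads among transcripts. The ratio functions were tested on simulated data.

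The members, lists and tests were chosen with earlier results of these data known. All members are named, and of other lists the genes past 2-fold and otherwise at most 2 with the largest absolute log2 ratio at 5 FPKM or more. One of the 11 lists, 1 gene that this rule names and 1 exon sequence are not reported here. Coding transcripts were grouped where their starts lie within 500 bases of the next. Alternatives were other pseudocounts, floors and scalings, protein-coding transcripts alone and aligned bases in place of FPKM. Python 3.11.15, pandas 2.3.3, NumPy 2.4.6, SciPy 1.17.1 and Matplotlib 3.10.9 were used. Sequences come from RefSeq (promoters) and GENCODE (exons).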

Additional observations from a re-analysis of the deposited data

How the results depend on the processing

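With 1 library per group there is no replicate error, and leaving out a replicate was not possible. No paired analysis was possible because each group has 1 library. The count of the described genes 2-fold or more lower was 1 and became 2 (Avil and Des) at a pseudocount of 0.1 FPKM and also with no pseudocount, where the count higher became 1 (Myh11) in place of 0. The no-pseudocount setting and the sum of Actb without ENSMUST00000167386 were chosen after seeing the data. With a pseudocount of 0.1, 400 of all genes were higher and 360 lower, and with a pseudocount of 5, 97 and 71. Transcripts of the described genes counted higher were 4 at a pseudocount of 5, against 11, and those counted lower were 8 at 0.1 and 3 at 5, against 5. The median log2 ratio of the described genes was 0.11 and became 0.16 from aligned bases, where Myl6, Myl12a and Mylk changed sign. Myl12a also changed sign with protein-coding transcripts alone. No other of the 37 genes changed sign under the settings run. Scaling moved the median of all genes by 0.02 on the log2 scale. Depth limits Acta1, Des and Myocd, with under 100 fragment equivalents per library.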
